A study of Mus musculus with 13 samples.

Results

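Breakfast skipping and lunch skipping were compared in jejunal epithelial cells of mice, by sequencing of polyadenylated RNA. The comparison used 5 of the 13 libraries of the series, taken by their labels: 2 of BSF and 3 of LSF, with every gene of the raw count table. BSF mice had food from ZT16 to ZT24. LSF mice had food from ZT12 to ZT16 and again from ZT20 to ZT24. Both schedules thus gave 8 hours of feeding a day, ended at the same hour and were kept for 2 weeks. ZT is the time in hours after lights on. With lights off at ZT12, all feeding would fall in the dark phase, when mice are active. The comparison holds no control library. The sources used here do not give the mice's strain, sex, age or genotype, nor the hour at which they were sampled. Cells were sorted for the epithelial antigen EpCAM and against CD45, CD11b, CD3 and B220, which mark leukocytes. Values of 5 further libraries are set beside the results: DSF, fed from ZT12 to ZT20 for 2 weeks (2 libraries), and BSF_C, which the labels name as breakfast skipping combined with control, without feeding times (3 libraries).

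Enterocytes of the jejunum digest and take up sugars, peptides and fat, and renew themselves from dividing crypt cells. Food is a strong time cue for peripheral clocks, in which the activators Bmal1 (Arntl) and Clock drive their own repressors, the Per, Cry and Rev-erb proteins. In fasting, low insulin and raised glucocorticoids and glucagon generally favour fat oxidation, ketone formation and glucose synthesis, while feeding favours the synthesis of sterols and fatty acids.

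Library totals lay between 7127769 and 8589351 counts, and between 16345 and 16620 genes had at least 1 count. Replicates lay close together. Over genes, chi-square divided by its degrees of freedom (1 where counting error is the only source) was 2.14 for the BSF pair and 1.38 to 1.59 for the LSF pairs, against 12.5 to 13.1 between the groups. Of 14051 genes tested, edgeR's quasi-likelihood test called 5147 at an adjusted p under 0.05 (36.6%), 2444 of them higher in BSF (17.4%) and 2703 lower (19.2%). Most differences were small: 3464 of the called genes differed by less than 1.5-fold, and 829 by at least 2-fold, 319 higher and 510 lower in BSF. With libraries scaled to their totals alone, 3566 genes were called higher and 2041 lower, so the split between the directions rests on the scaling. The libraries of the groups did not overlap in 56.7% of genes. Fold changes below are log2 of BSF over LSF with their SE, so a negative value is higher in LSF. Levels are scaled CPM, counts relative to each library's scaled total. The labels call replicates biological without naming animals. P-values thus reflect nothing beyond the spread among replicates in the 10 libraries fitted (BSF, LSF, BSF_C and DSF), which may be technical in part. In bulk RNA, fewer cells of a type and less RNA per cell cannot be told apart.

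The sorted antigen was present throughout. Epcam was 349 and 337 CPM in BSF and 325, 327 and 339 CPM in LSF (0.06 ± 0.04, adjusted p = 0.311). It was called higher in BSF with library totals alone (0.13, adjusted p = 0.00527). Of 8 epithelial identity genes, 2 were called higher and 1 lower in BSF, with fold changes between -0.22 and 0.11. None was higher without BSF replicate 1, 1 was without each LSF library, and 5 were with library totals alone. Markers that the sort excluded were detected at low levels: Ptprc (CD45) was 13.1 and 15.2 CPM in BSF and 18.0, 18.8 and 20.6 CPM in LSF (-0.43 ± 0.14, adjusted p = 0.0109). Without BSF replicate 1 that call was lost (adjusted p = 0.146), as it was without LSF replicate 3 (adjusted p = 0.0505).

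**Figure D1:**
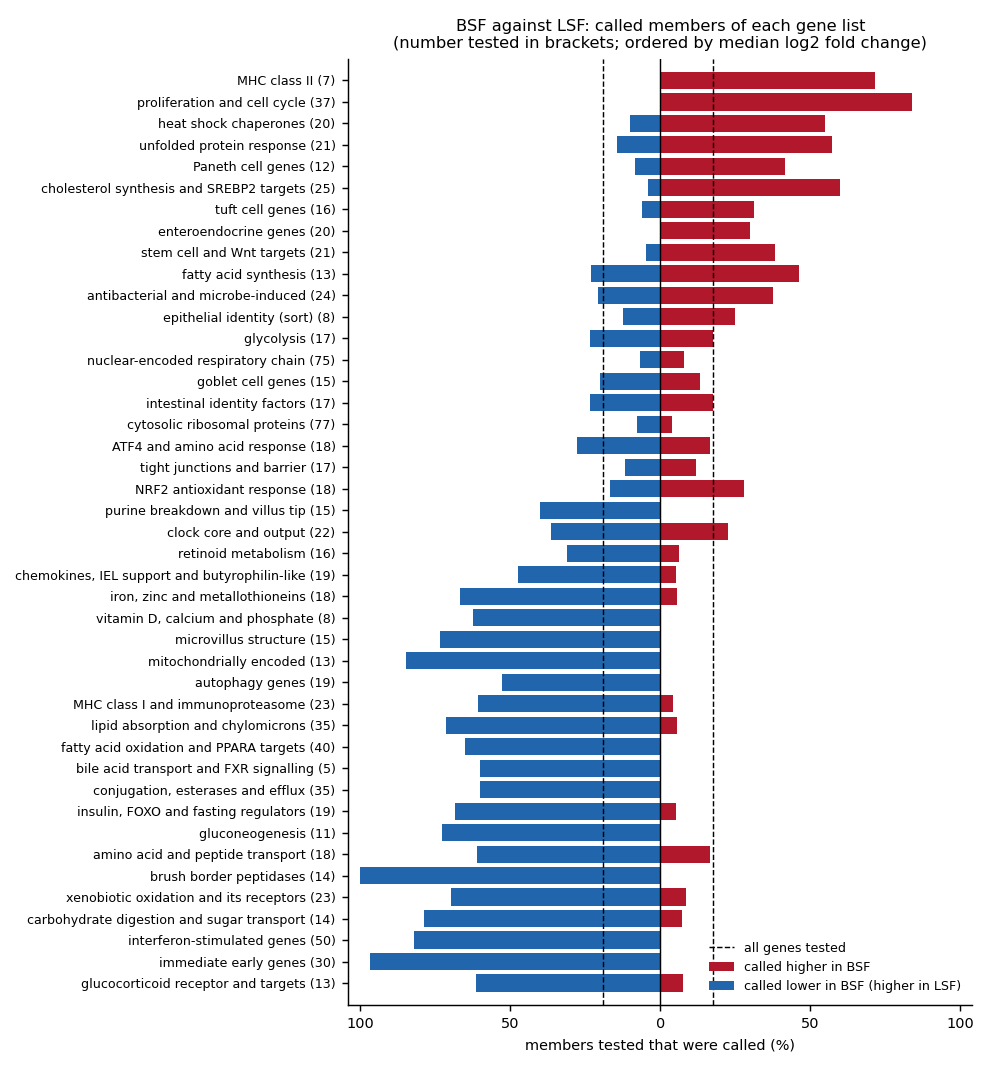
Share of the tested members of each gene list (rows) called higher in BSF (red, to the right) or lower in BSF (blue, to the left), with dashed lines at the shares among all genes tested (17.4% and 19.2%). Blue bars are longest for brush border peptidases (14 of 14) and immediate early genes (29 of 30), and red bars for proliferation genes (31 of 37) and MHC class II genes (5 of 7).

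Genes of glucose synthesis and of the fasting response were higher under lunch skipping. Pck1, which commits carbon to glucose and glycerol synthesis, was 55.8 and 61.6 CPM in the BSF libraries and 504, 494 and 505 CPM in the LSF libraries. All LSF libraries lay far above both BSF libraries, 8.50-fold in the fit (-3.09 ± 0.06, adjusted p = 6.36e-76). Pdk4, a kinase that switches off pyruvate oxidation, was 25.5 and 31.7 CPM in BSF and 109, 113 and 109 CPM in LSF (-1.94 ± 0.08, adjusted p = 1.15e-39). In both genes LSF stood alone: the means in BSF_C and DSF were 61.6 and 72.0 CPM for Pck1, and 29.8 and 33.9 CPM for Pdk4. The test of LSF against DSF, which uses the same LSF libraries and called 21.6% of all genes, gave 2.80 ± 0.05 and 1.70 ± 0.08 for them. Of the 14051 genes tested, it called 1637 higher and 1399 lower in LSF.

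The lists around these enzymes moved the same way. In gluconeogenesis, 8 of 11 members were lower in BSF and none was called higher, with a median of -0.37 (all genes: 0.01). They include Gpt, the alanine aminotransferase that feeds amino acid carbon into the pathway (373 and 360 CPM against 548, 542 and 535 CPM, -0.56 ± 0.04), and Slc37a4, the transporter of glucose 6-phosphate into the endoplasmic reticulum (-0.37 ± 0.06). Of 40 tested genes of fatty acid oxidation and PPARA targets, 26 were lower in BSF and none higher (median -0.28). Creb3l3, a fasting-induced regulator of fat and ketone metabolism in liver and gut, was 225 and 234 CPM in BSF and 337, 342 and 344 CPM in LSF (-0.57 ± 0.04). Acaa1a, the peroxisomal thiolase, differed by -0.72 ± 0.06. Insulin, FOXO and fasting regulators were lower in BSF in 13 of 19 and higher in 1 (median -0.36), the latter in none without BSF replicate 2 or LSF replicate 3. Among these, Irs2, the insulin receptor substrate that rises in fasting, was 64.9 and 60.2 CPM in BSF and 101, 111 and 102 CPM in LSF (-0.74 ± 0.07), and Pdk2, a sister of Pdk4, differed by -0.84 ± 0.07. Against DSF, LSF was called higher in 8 of the 11 gluconeogenesis genes, 24 of 40 fat oxidation genes and 9 of 19 fasting regulators, and lower in 1 of each list.

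Glucocorticoid targets were also higher in LSF. Sgk1, a kinase that raises sodium uptake, was 50.5 and 56.8 CPM in BSF and 137, 140 and 145 CPM in LSF (-1.38 ± 0.07, adjusted p = 7.75e-36). It was 61.3 CPM on average in BSF_C and 34.7 CPM in DSF. Klf15, a transcription factor of amino acid catabolism, was 3.72 and 5.02 CPM against 19.0, 19.0 and 20.3 CPM, 4.38-fold higher in LSF (-2.13 ± 0.19, adjusted p = 1.25e-17). Errfi1, an inhibitor of EGF receptor signalling, differed by -0.66 ± 0.06. Of 13 tested members 8 were lower in BSF and 1 was higher (median -0.79), and none was higher without either BSF library. The list shares Dusp1 with the immediate early genes and Per1 with the clock list.

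The promoter of Pck1 is shown because it holds a known hormone-response motif and Pck1 is among the genes that differed most. It is the 250 bases before the start in RefSeq's GRCm38.p6 table, 5′ to 3′ on the gene's strand, chr2:173152823-173153072 on the plus strand. The capitals mark a cyclic AMP response element, searched as TNACGTCA (N is any base) on both strands, whose first base lies 93 bases before the start.
Pck1: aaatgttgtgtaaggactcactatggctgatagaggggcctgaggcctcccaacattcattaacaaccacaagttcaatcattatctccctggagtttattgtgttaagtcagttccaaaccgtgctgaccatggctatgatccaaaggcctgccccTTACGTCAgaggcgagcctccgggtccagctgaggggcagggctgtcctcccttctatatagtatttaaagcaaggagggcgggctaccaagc
The motif was found in 1 of the 10 gluconeogenesis genes with a promoter window and in 2.92% of all 27025 genes with one. A match describes the letters and is no evidence of binding. The motifs were chosen with the results known, from textbook consensus letters. Each promoter printed here or below is that of the called member with the smallest p that held the motif.

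**Figure D2:**
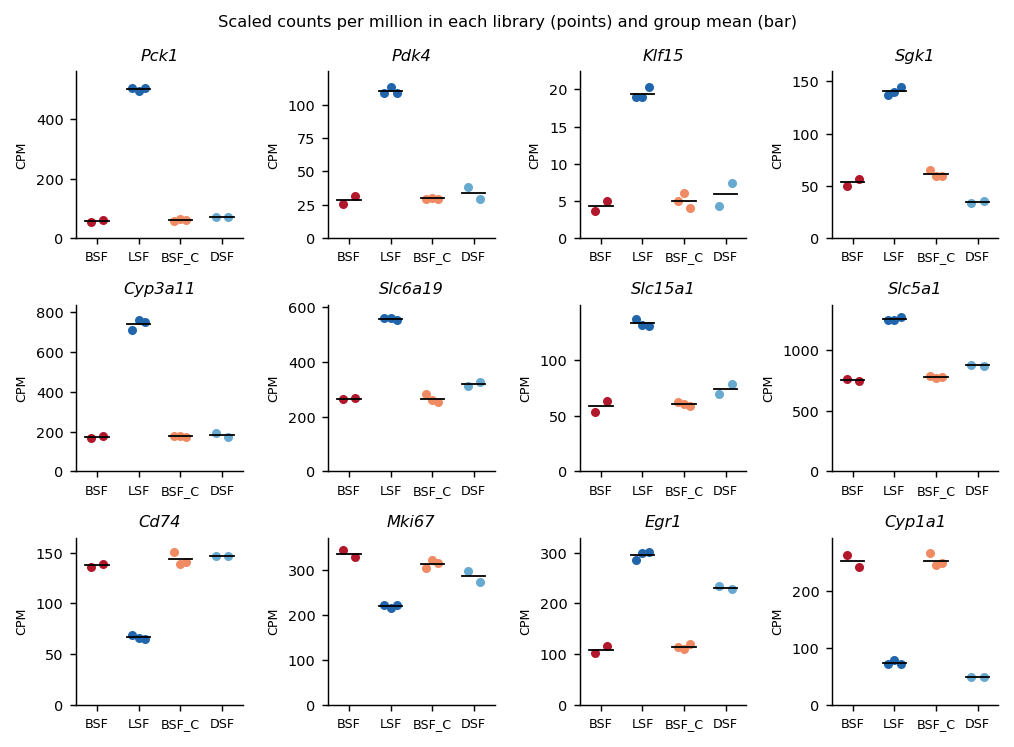
CPM of 12 genes (panels, each with its own linear axis from 0) in every library of BSF, LSF, BSF_C and DSF, with bars at the group means. In Pck1, Pdk4, Klf15, Cyp3a11 and Cd74 the 3 LSF libraries lie apart from those of the 3 other groups, while in Egr1 and Cyp1a1 LSF and DSF lie on one side and BSF and BSF_C on the other.

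The machinery of digestion and absorption was higher under lunch skipping. All 14 brush border peptidases, which cut peptides at the apical membrane, were called lower in BSF (median -0.45). Ace, the angiotensin-converting enzyme, was 631 and 625 CPM in BSF and 1026, 1025 and 1002 CPM in LSF (-0.70 ± 0.04, adjusted p = 4.56e-34). Anpep, aminopeptidase N, differed by -0.40 ± 0.03. Slc6a19, the main carrier of neutral amino acids, was 263 and 266 CPM in BSF and 559, 558 and 552 CPM in LSF, with no overlap (-1.07 ± 0.04, adjusted p = 8.84e-44). Slc15a1, the peptide carrier PepT1, was 53.3 and 63.2 CPM against 137, 131 and 131 CPM (-1.18 ± 0.07). Of 18 tested amino acid and peptide transporters, 11 were lower and 3 higher in BSF (median -0.37), with 1 higher without BSF replicate 2.

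Sugar handling followed the same direction. Slc5a1, the sodium-coupled glucose carrier SGLT1, was 765 and 750 CPM in BSF and 1250, 1247 and 1273 CPM in LSF (-0.73 ± 0.03, adjusted p = 3.33e-37). Slc2a2, the basolateral carrier GLUT2, was 283 and 305 CPM against 462, 445 and 449 CPM (-0.62 ± 0.04), and Mgam, maltase-glucoamylase, differed by -0.71 ± 0.04. Of 14 genes 11 were lower in BSF and 1 was higher (median -0.52). DSF lay between, with 876 CPM for Slc5a1 and 432 CPM for Mgam, or level with BSF, with 287 CPM for Slc2a2. Against DSF, LSF was called higher in 13 of 14 sugar genes, 13 of 14 peptidases and 12 of 18 amino acid and peptide carriers. Glycolysis genes were split, with 3 higher and 4 lower in BSF among 17 (2 lower without BSF replicate 1, and 7 higher with library totals alone).

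Lipid absorption genes were lower in BSF in 25 of 35 and higher in 2 (median -0.24), or 1 without BSF replicate 1. Abcg5 and Abcg8, the partners of a pump that returns sterols to the lumen, differed by -1.03 ± 0.05 and -1.19 ± 0.05, with Abcg8 at 157 and 186 CPM in BSF and 390, 410 and 379 CPM in LSF. They lie side by side on opposite strands, and no source used here gives the strand setting of the counts. Apoa1, the main protein of high density lipoprotein, was 6914 and 6884 CPM against 9412, 9353 and 9242 CPM (-0.44 ± 0.03), and Dgat1, which makes triglyceride, differed by -0.46 ± 0.03. Apoa4, an abundant chylomicron protein named after its values were seen, was not called (-0.02 ± 0.03, adjusted p = 0.617). Microvillus genes were lower in BSF in 11 of 15 and higher in none. Ezr, which ties the membrane to actin, was 449 and 456 CPM against 705, 693 and 724 CPM (-0.64 ± 0.04). Alpi, the alkaline phosphatase of mature enterocytes, was 1878 and 1942 CPM in BSF and 3088, 3093 and 3022 CPM in LSF (-0.68 ± 0.03, adjusted p = 2.25e-37). It belongs to the list of purine breakdown and villus tip genes, where 6 of 15 were lower in BSF and none higher. The median of that list was -0.05, and with library totals alone it turned to 0.03 with 3 genes higher.

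Synthesis of sterols and fatty acids went the other way. Cyp51, the lanosterol demethylase, was 96.8 and 85.5 CPM in BSF and 56.4, 66.1 and 57.8 CPM in LSF (0.60 ± 0.07, adjusted p = 1.57e-12), and Hmgcs1, the cytosolic synthase of the sterol pathway, differed by 0.37 ± 0.06. Of 25 genes of cholesterol synthesis and SREBP2 targets, 15 were higher in BSF (60.0%, against 17.4% of all genes) and 1 was lower (median 0.27), the latter in none without BSF replicate 2. Among 13 fatty acid synthesis genes, 6 were higher and 3 lower. Fasn, the fatty acid synthase, was 348 and 331 CPM in BSF and 239, 215 and 233 CPM in LSF (0.57 ± 0.05). Scd2, a desaturase, differed by 0.68 ± 0.04, but its paralog Scd1 by -0.94 ± 0.12. LSF was low against DSF as well, in 20 of the 25 sterol genes and 7 of the 13 fatty acid genes, with 2 and 4 called higher. The DSF mean was 372 CPM for Fasn.

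Detoxifying enzymes differed in both directions. Cyp3a11, an oxidase of bile acids and drugs and a target of the receptor PXR, was 166 and 178 CPM in BSF and 711, 761 and 750 CPM in LSF, 4.30-fold higher (-2.10 ± 0.05, adjusted p = 5.28e-68). BSF_C and DSF were level with BSF, at 176 and 182 CPM. Cyp2c29 was 2.48 and 3.88 CPM in BSF and 29.4, 29.4 and 29.8 CPM in LSF (-3.18 ± 0.19). Cyp1a1, the oxidase induced through the aryl hydrocarbon receptor (chromosome 9, 57687928 to 57703824 in GRCm38), ran against them, at 263 and 242 CPM in BSF and 71.0, 79.4 and 70.7 CPM in LSF (1.78 ± 0.05, adjusted p = 1.01e-53). For Cyp1a1 the means were 254 CPM in BSF_C and 49.1 CPM in DSF. Of 23 tested genes of xenobiotic oxidation and its receptors, 16 were lower and 2 higher in BSF (median -0.47), with 1 higher without BSF replicate 1. Of 35 conjugation, esterase and efflux genes, 21 were lower and none higher (median -0.35). The glutathione transferase Gstm1 was 76.5 and 82.4 CPM against 257, 274 and 251 CPM (-1.71 ± 0.06, adjusted p = 5.97e-51), and Ces2a, a carboxylesterase, differed by -1.18 ± 0.05. Near-identical copies in the Cyp3a, Cyp2c and Gstm families may share reads, so single members are uncertain.

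Most genes of metal handling were lower in BSF. Mt2, a metallothionein that binds zinc and is induced by glucocorticoids, was 6.07 and 6.05 CPM in BSF and 29.5, 30.4 and 28.9 CPM in LSF (-2.29 ± 0.16, adjusted p = 2.20e-24). Tfrc, the transferrin receptor, was higher in BSF, at 379 and 361 CPM against 251, 244 and 251 CPM (0.57 ± 0.04). Fth1, the ferritin heavy chain that stores iron, was 1422 and 1463 CPM against 1996, 2023 and 2001 CPM (-0.48 ± 0.03). Of 18 iron, zinc and metallothionein genes, 12 were lower and 1 was higher in BSF. Slc51b, a subunit of the basolateral bile acid exporter, differed by -0.89 ± 0.12. Of 5 tested bile acid genes 3 were lower and none higher, but Nr1h4, the bile acid receptor FXR, lost its call without BSF replicate 1 (adjusted p = 0.0649), without BSF replicate 2 (adjusted p = 0.0539) and with library totals alone (adjusted p = 0.0586). The retinol enzymes Rdh7 and Rdh9, members of a family of close copies, differed by -0.71 ± 0.05 and -1.42 ± 0.08, while 5 of 16 retinoid genes were lower and 1 was higher (2 without LSF replicate 2).

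Genes of cell division were higher under breakfast skipping. Mki67, a protein of dividing cells, was 343 and 328 CPM in BSF and 222, 214 and 221 CPM in LSF, with no overlap (0.61 ± 0.04, adjusted p = 9.42e-24). Top2a, the topoisomerase of chromosome segregation, was 84.8 and 90.2 CPM against 49.2, 54.0 and 48.7 CPM (0.79 ± 0.07), and the cyclins Ccna2 and Ccnd1 differed by 0.54 ± 0.06 and 0.58 ± 0.05. Of 37 proliferation and cell cycle genes 31 were higher in BSF (83.8%, against 17.4% of all genes) and none was lower, with a median of 0.39. LSF was called lower than DSF in 26 of the 37 and higher in none. BSF_C against DSF, which called 17.4% of all genes, called 6 of the 37. Stem cell and Wnt target genes were higher in BSF in 8 of 21 and lower in 1 (median 0.20). Olfm4, a marker of crypt base stem cells, was 1877 and 1787 CPM against 1328, 1335 and 1338 CPM (0.46 ± 0.03), and Smoc2 differed by 0.55 ± 0.07.

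Chaperones of the cytosol and of the endoplasmic reticulum rose beside the cell cycle genes. Hspa4, a nucleotide exchange factor for Hsp70, was 140 and 142 CPM in BSF and 85.0, 85.4 and 79.4 CPM in LSF (0.76 ± 0.06, adjusted p = 5.51e-22), and Hsp90aa1 was 358 and 354 CPM against 218, 223 and 220 CPM (0.69 ± 0.04). Of 20 heat shock chaperone genes 11 were higher and 2 lower (median 0.36). Of 21 genes of the unfolded protein response, 12 were higher and 3 lower (median 0.33), with 1 lower without BSF replicate 2. Calr, the calcium-binding chaperone calreticulin, was 966 and 971 CPM against 661, 668 and 688 CPM (0.53 ± 0.03, adjusted p = 4.43e-26). Hspa5, the chaperone BiP, was 1188 and 1167 CPM against 861, 858 and 884 CPM (0.44 ± 0.03), and here DSF lay with LSF, at 902 CPM. For Calr DSF lay with BSF, at 962 CPM.

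The promoter of Mki67 is shown as an example of the proliferation list, whose members often held a CCAAT box. Its window is chr7:135716380-135716629 on the minus strand, and the capitals mark CCAAT in either orientation.
Mki67: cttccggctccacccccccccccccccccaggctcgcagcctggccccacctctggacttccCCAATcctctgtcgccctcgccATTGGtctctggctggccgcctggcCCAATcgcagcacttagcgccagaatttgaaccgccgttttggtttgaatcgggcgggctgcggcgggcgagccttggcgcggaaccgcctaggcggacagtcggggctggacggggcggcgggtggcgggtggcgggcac
A CCAAT box was found in 24 of 30 proliferation genes with a promoter window (80%) and in 37.5% of all genes. The cell cycle homology region, searched as TTTGAA on both strands, was found in 9 of the 30 (30%) and in 18.3% of all genes, and lies at 116 and 98 bases before the start in Mki67. The 2 motifs share no letters in that window.

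Among the rarer epithelial cells, the Paneth, enteroendocrine and tuft lists held more higher than lower calls. Of 12 tested Paneth cell genes 5 were higher and 1 was lower in BSF. Lyz1, the Paneth cell lysozyme, was 1436 and 1412 CPM against 1161, 1085 and 1121 CPM (0.34 ± 0.03, adjusted p = 3.20e-16). Guca2b, uroguanylin, went against it (-0.87 ± 0.08). Guca2b was placed in this list, but the cells it came from were not tested. Enteroendocrine genes were higher in 6 of 20 and lower in none, among them Scg2, a granule protein (39.1 and 41.8 CPM against 26.8, 25.7 and 24.3 CPM, 0.66 ± 0.10), and Neurog3, the factor of their precursors (0.94 ± 0.18). Tuft cell genes were higher in 5 of 16 and lower in 1, with 2 higher without BSF replicate 1. Goblet cell genes were higher in 2 and lower in 3 of 15, with 1 higher without BSF replicate 1. Intestinal identity factors were higher in 3 and lower in 4 of 17, with 1 higher without LSF replicate 1 and 8 with library totals alone.

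Clock genes moved in both directions. Of 22 tested, 5 were higher and 8 lower in BSF (22.7% and 36.4%). Among the repressors, Nr1d1 (Rev-erb alpha; chromosome 11, 98767932 to 98775333) was 48.5 and 46.1 CPM in BSF and 105, 96.6 and 98.3 CPM in LSF (-1.08 ± 0.07, adjusted p = 9.53e-25). Nr1d2 (Rev-erb beta) was 9.93 and 12.1 CPM against 29.0, 35.0 and 32.6 CPM (-1.53 ± 0.14), and Per1 was 13.2 and 14.4 CPM against 31.0, 32.2 and 29.0 CPM (-1.15 ± 0.12). In these 3 genes all LSF libraries lay above both BSF libraries, and LSF was called higher than DSF by 0.79, 0.96 and 0.68. Cry1 ran the other way, at 48.9 and 50.3 CPM in BSF and 25.2, 29.1 and 28.3 CPM in LSF (0.85 ± 0.09, adjusted p = 1.41e-13). Per2 was 67.7 and 72.7 CPM against 53.8, 54.0 and 52.2 CPM (0.40 ± 0.07), and Bhlhe40, a repressor of Clock targets, was 275 and 274 CPM against 188, 172 and 197 CPM (0.56 ± 0.05).

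Arntl and Clock, the activators of the core loop, did not pass. Arntl was 34.7 and 34.1 CPM in BSF and 30.4, 31.9 and 30.1 CPM in LSF (0.16 ± 0.10, adjusted p = 0.202). It was called higher in BSF with library totals alone (0.24, adjusted p = 0.0455). Clock (0.06 ± 0.06), Cry2 (-0.01 ± 0.10), Per3 (0.09 ± 0.17) and Nfil3 (0.03 ± 0.07) were not called. Of the output factors, Tef was 73.5 and 66.8 CPM against 92.8, 86.5 and 81.8 CPM (-0.32 ± 0.07), and Dbp was 8.68 and 7.42 CPM against 11, 11.5 and 13.4 CPM (-0.57 ± 0.18, adjusted p = 0.00665). The Dbp call was lost without BSF replicate 2 (adjusted p = 0.134). DSF was lowest of the 4 groups in Per2 (37.0 CPM), Tef (37.3 CPM) and Cry2 (18.9 CPM).

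**Figure D3:**
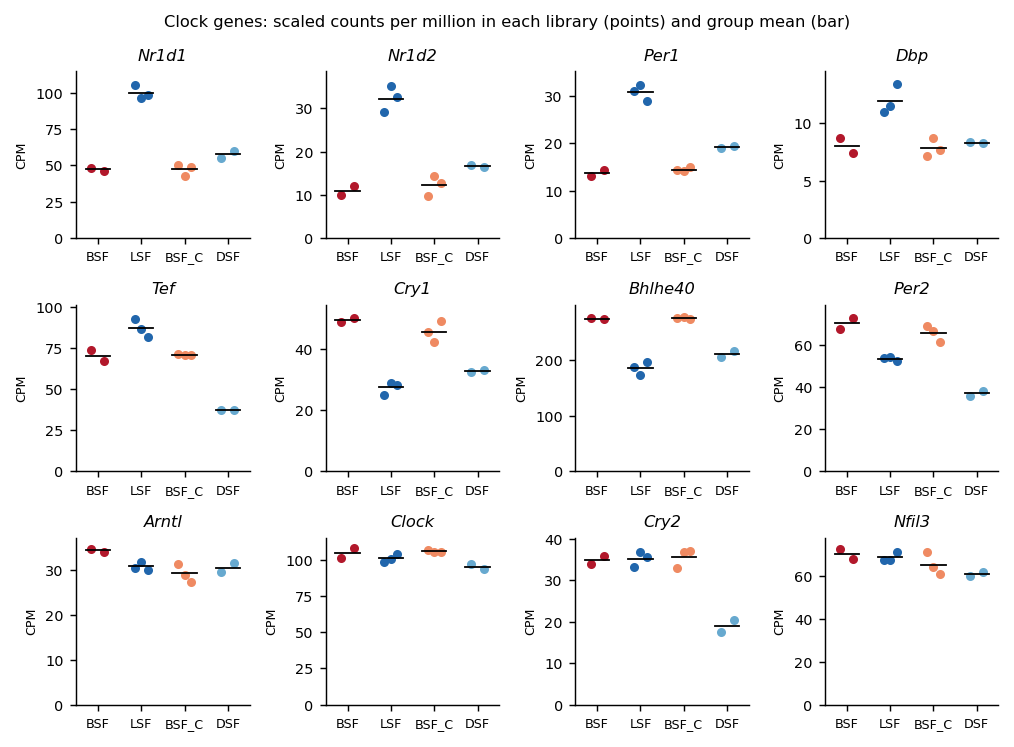
CPM of 12 clock genes (panels, linear axes from 0) in every library of 4 groups, with bars at the group means. Nr1d1, Nr1d2 and Per1 are highest in LSF, Cry1 and Bhlhe40 are higher in BSF and BSF_C than in LSF and DSF, and the means of Arntl, Clock and Nfil3 differ little.

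Immediate early genes, which are switched on within minutes of stimulation and also by tissue handling, were lower in BSF in 29 of 30 (96.7%, against 19.2% of all genes; median -0.73), and Egr3 was the member not called. Egr1 was 102 and 116 CPM in BSF and 287, 299 and 301 CPM in LSF (-1.44 ± 0.05, adjusted p = 5.23e-47). Fos was 198 and 209 CPM against 464, 456 and 436 CPM (-1.15 ± 0.04), Fosb differed by -1.51 ± 0.06 and Junb by -1.02 ± 0.04. DSF lay nearer to LSF than to BSF, with 231 CPM for Egr1 and 421 CPM for Fos. BSF_C lay with BSF, at 114 and 210 CPM. BSF_C against DSF, which shares no library with BSF against LSF, called 21 of the 30 lower and none higher. LSF itself was called higher than DSF in 10 of the 30 genes and lower in 3 (all genes: 1637 and 1399 of 14051). The summed level of heart muscle genes divided the libraries in the same way, at 361 and 390 CPM in BSF and 716 to 820 CPM in LSF, and its part in the result was not tested.

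Interferon-stimulated genes were also lower in BSF. Ifit3, an antiviral protein of the IFIT family, was 20.1 and 22.3 CPM in BSF and 62.8, 62.9 and 51.9 CPM in LSF (-1.48 ± 0.10, adjusted p = 2.84e-25). Irf7, the factor that amplifies interferon production, was 122 and 117 CPM against 247, 242 and 235 CPM (-1.02 ± 0.05), and Oasl2 was 83.5 and 89.7 CPM against 184, 187 and 171 CPM (-1.06 ± 0.06). Of 50 members 41 were lower in BSF and none was higher (median -0.59). DSF means were 229 CPM for Irf7 and 182 CPM for Oasl2, and neither gene was called between LSF and DSF (adjusted p = 0.262 and 0.96). Of the 50 genes, however, 17 were called between LSF and DSF, 10 higher and 7 lower in LSF, against 21.6% called among all genes. BSF_C against DSF called 42 of the 50 lower and none higher. Intraepithelial lymphocyte genes, summed, divided the libraries alike, at 269 and 294 CPM in BSF and 385 to 399 CPM in LSF, and their part was not tested. MHC class I and immunoproteasome genes were lower in BSF in 14 of 23 and higher in 1, with H2-Q family members uncertain for shared reads.

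The promoters of Atf3 and Cry1 stand for the immediate early and the clock list. Atf3, a stress-induced transcription factor, was 40.7 and 39.0 CPM in BSF and 93.1, 96.1 and 92.1 CPM in LSF (-1.24 ± 0.08, adjusted p = 2.37e-28). DSF was 96.8 and 87.6 CPM and so overlapped LSF. Atf3 was named after its values were seen. Its window is chr1:191183334-191183583 on the minus strand, and the capitals mark the cyclic AMP response element. That of Cry1 is chr10:85185055-85185304 on the minus strand, and the capitals mark the E-box CACGTG, the motif bound by the Clock partners.
Atf3: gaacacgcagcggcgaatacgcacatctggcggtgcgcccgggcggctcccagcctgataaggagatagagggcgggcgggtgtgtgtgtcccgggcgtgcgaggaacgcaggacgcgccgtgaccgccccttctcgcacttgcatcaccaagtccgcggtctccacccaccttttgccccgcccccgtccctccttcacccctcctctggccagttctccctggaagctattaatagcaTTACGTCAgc
Cry1: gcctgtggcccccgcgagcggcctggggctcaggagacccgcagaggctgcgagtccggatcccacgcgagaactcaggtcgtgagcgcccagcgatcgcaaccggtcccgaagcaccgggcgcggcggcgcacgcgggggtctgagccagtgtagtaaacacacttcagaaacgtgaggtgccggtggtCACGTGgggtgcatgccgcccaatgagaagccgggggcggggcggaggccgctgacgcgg
The cyclic AMP response element was found in 5 of 26 immediate early genes with a window (19.2%) and in 2.92% of all genes. The E-box was in 5 of 17 clock genes (29.4%) and in 6.86% of all genes. The 5 held genes that were higher and genes that were lower in BSF, Cry1 and Per1 among them.

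Antigen presentation by MHC class II went in the opposite direction. Cd74, the invariant chain that guides class II molecules (chromosome 18, 60803848 to 60812652), was 136 and 139 CPM in BSF and 68.7, 65.7 and 65.1 CPM in LSF, 2.07-fold higher in BSF (1.05 ± 0.06, adjusted p = 5.01e-31). The means of BSF_C and DSF were 144 and 147 CPM, so LSF stood alone as the low group. Ciita, the switch factor of the family, was 27 and 28 CPM against 14.8, 16.5 and 14.9 CPM (0.84 ± 0.12), and here DSF was low too, at 17.6 CPM. H2-Aa and H2-Ab1, chains of the class II molecule, differed by 0.83 ± 0.12 and 0.54 ± 0.10. Of 7 tested members 5 were higher in BSF and none was lower (median 0.58). The antibacterial lectin Reg3g was 458 and 459 CPM in BSF, 300, 295 and 316 CPM in LSF and 778 CPM on average in DSF (0.59 ± 0.04 between BSF and LSF). Its relative Reg3a, with near copies, differed by -0.69 ± 0.07, and the list of antibacterial genes gave 9 higher and 5 lower of 24.

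Transcripts typical of some other cells and tissues moved with the groups, and their part in the results above was not tested. No tested gene was called in the lists of kidney tubule (10 tested), hepatocyte (2) and melanocyte (6). The same held for pancreatic acinar cells (4) and for lung and airway (1). Of 17 tested heart muscle genes 14 were lower in BSF and none was higher (median -1.11). Myh6, the myosin heavy chain of heart muscle, was 58.2 and 57.4 CPM in BSF and 195, 170 and 190 CPM in LSF (-1.68 ± 0.06, adjusted p = 2.97e-45), and DSF lay with LSF at 184 CPM. The 19 heart genes summed to 361 and 390 CPM in BSF, 716 to 820 CPM in LSF, 343 to 394 CPM in BSF_C and 781 to 787 CPM in DSF, and none was at 0 in BSF or LSF. The most abundant member in BSF, Ldb3, was not called (0.11 ± 0.06). Pln overlaps another gene, so its level is uncertain without the strand setting. Tcap, a striated muscle protein outside the list, differed by -2.39 ± 0.12. Acta1, the actin of skeletal muscle, ran the other way, at 97.2 and 97.4 CPM in BSF and 53.3, 54.0 and 51.9 CPM in LSF (0.87 ± 0.07), while Myh1 and Myh4 of the same list had no count in either group. The 10 skeletal muscle genes summed to 101 CPM in BSF and 56.1 CPM in LSF on average, most of it Acta1.

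Brain genes were higher in BSF in 8 of 12 and lower in 1 (median 0.91), and enteric neuron and glia genes in 4 of 8 (median 0.75). The brain gene called lower was lost without BSF replicate 2 or LSF replicate 1. The enteric count was 2 without BSF replicate 2, without LSF replicate 2 and with the Wald test of DESeq2. The 13 brain genes summed to 270 and 259 CPM in BSF, 193 to 203 CPM in LSF, 260 to 278 CPM in BSF_C and 186 to 196 CPM in DSF, most of it Mbp. The 10 enteric genes summed to 54.6 and 49.4 CPM in BSF and 30.0 to 34.6 CPM in LSF. Genes known from neurons or glia also filled most of the places among the 10 largest rises, such as Slc6a11, a carrier of the transmitter GABA (11.6 and 13.2 CPM against 3.34, 3.82 and 3.68 CPM, 1.78 ± 0.21), the potassium channel Kcnj10 (1.71 ± 0.25), and the filament gene Ina (1.48 ± 0.32).

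Most markers of intraepithelial lymphocytes and of fibroblasts were called higher in LSF. Of 12 tested genes of intraepithelial lymphocytes 7 were lower in BSF and 1, the integrin Itgae, was higher (0.24 ± 0.09), a call lost without BSF replicate 2, LSF replicate 2 or LSF replicate 3. Gzma, a granzyme, was 41.6 and 51.6 CPM against 80.1, 77.5 and 82.3 CPM (-0.77 ± 0.08), and Cd8a differed by -0.81 ± 0.08. The 13 genes summed to 269 and 294 CPM in BSF, 385 to 399 CPM in LSF, 274 to 307 CPM in BSF_C and 399 to 425 CPM in DSF. The 10 leukocyte markers of the sort summed to 35.6 and 38.8 CPM in BSF and 51.5 to 54.8 CPM in LSF, none at 0. Of the 8 tested, 3 were lower in BSF, none was higher and 5 were not called. Fibroblast and matrix genes were lower in BSF in 9 of 14 and higher in none (5 of 14 without BSF replicate 1), with sums of 99.7 and 94.4 CPM against 204 to 249 CPM. The collagen Col3a1 was 1.24 and 1.26 CPM against 7.05, 5.92 and 6.81 CPM (-2.39 ± 0.32). Of 9 endothelium genes 1 was lower in BSF. Of 6 tested gut smooth muscle genes 4 were lower and 1 was higher. The list summed to 242 CPM in BSF and 273 CPM in LSF on average, with Des alone at 15.1 and 48.3 CPM. The endothelium call and the higher smooth muscle call were lost with the Wald test of DESeq2. Leaving the listed markers of other cells and tissues out of the scaling and test left 13928 of 14051 genes. Of these, 5101 were called, 2419 higher and 2682 lower in BSF. Other transcripts of those cells and tissues stayed in, so this run cannot show their part in the results.

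**Figure D4:**
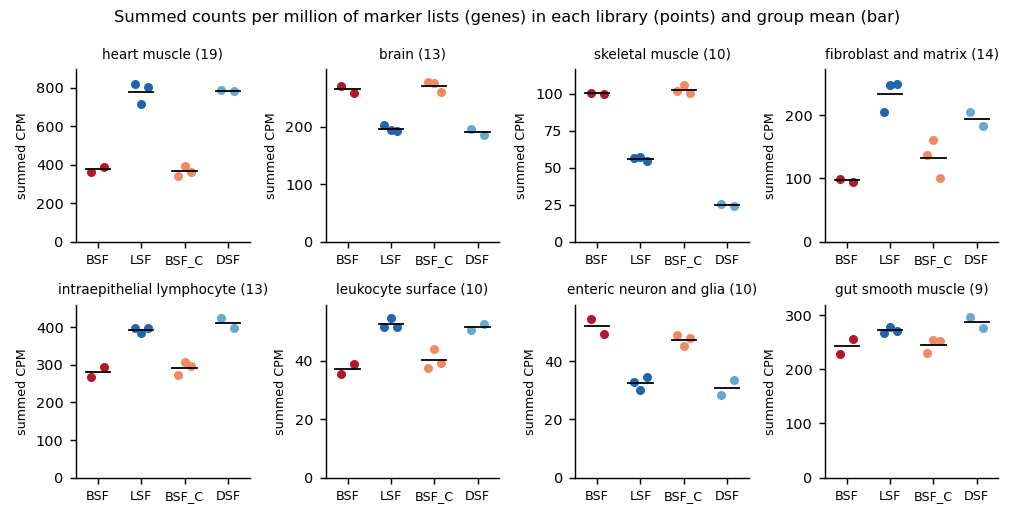
Summed CPM of 8 lists of other cells and tissues (panels, number of genes in brackets, linear axes from 0) in every library, with bars at the group means. In the 8 lists shown, LSF and DSF lie on one side and BSF and BSF_C on the other, by a narrow margin for gut smooth muscle. The 8 are a selection from 16 such lists. Of those not shown, myeloid and plasma cell genes divide alike, but kidney tubule and melanocyte genes do not. The skeletal muscle sum is mostly Acta1 in BSF and LSF.

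Libraries outside the comparison gave a second view of the same genes. BSF_C and DSF are other groups than BSF and LSF, and their contrast shares no library with it. BSF_C against DSF called 2448 of the 14051 genes tested (17.4%), 1182 higher and 1266 lower in BSF_C. Of the 5147 genes called between BSF and LSF, 1639 were also among those 2448. Of these 1639, 1423 had the same direction, 622 higher and 801 lower. Those 1423 were 27.6% of the first set and 58.1% of the second, and 216 genes had opposite directions. BSF_C itself differed little from BSF, with 6 genes called. Heart genes were called lower in 14 of 17 in each contrast, and brain genes higher in 8 and 7 of 12. Proliferation genes, called higher in 31 of 37 in BSF against LSF, were called higher in 6 in BSF_C against DSF. Peptidases, all 14 lower in BSF against LSF, were 3 higher and 3 lower in BSF_C against DSF. Camk2b, a calmodulin kinase subunit, was 283 and 260 CPM in BSF and 878, 868 and 880 CPM in LSF (-1.69 ± 0.04, adjusted p = 1.78e-63), and the means were 272 CPM in BSF_C and 844 CPM in DSF.

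**Figure D5:**
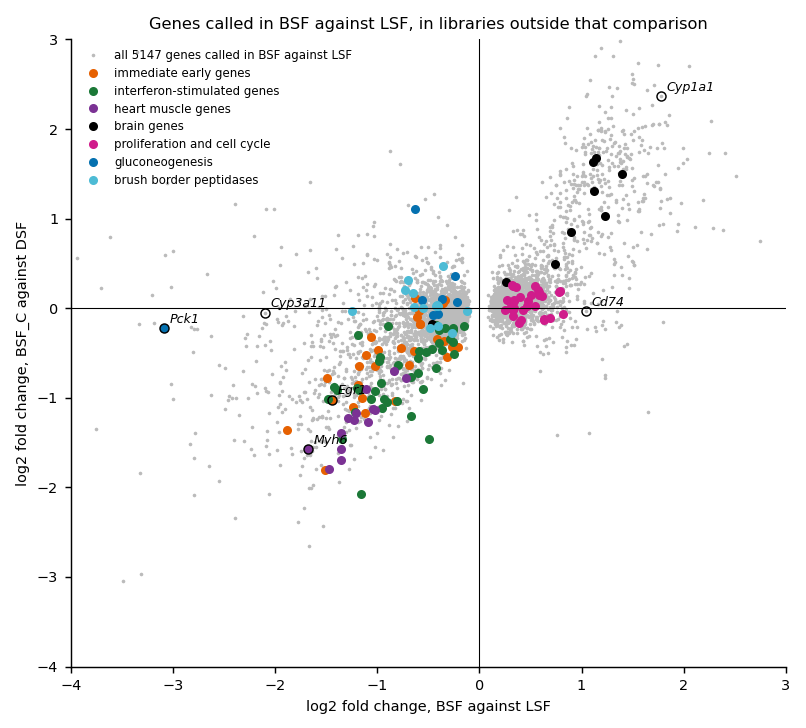
Log2 fold change of BSF_C against DSF (vertical) over that of BSF against LSF (horizontal) for the 5147 genes called in the latter, with 7 lists in colour and 6 genes circled and named. 3 genes lie outside the axes. Most immediate early, interferon-stimulated and heart genes lie below zero on both axes, while Pck1, Cyp3a11, Cd74 and the proliferation genes lie near zero on the vertical axis.

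Ribosomal, respiratory chain and tight junction lists held few calls. Cytosolic ribosomal proteins were higher in 3 and lower in 6 of 77, and nuclear-encoded respiratory chain genes were higher in 6 and lower in 5 of 75, below the shares among all genes (17.4% and 19.2%). Without BSF replicate 2 these became 6 and 3 ribosomal genes and 2 and 1 respiratory chain genes, and 1 ribosomal gene was higher without BSF replicate 1. With library totals alone 6 ribosomal and 13 respiratory chain genes were higher. Mitochondrially encoded genes were lower in BSF in 11 of 13 by small amounts, between -0.30 and -0.12, and in 6 of 13 without BSF replicate 1 or with library totals alone. Their share of all counts was 9.54% ± 0.465 in BSF (SD, n = 2) and 10.1% ± 0.0296 in LSF (SD, n = 3). Tight junction genes were higher in 2 and lower in 2 of 17, with 1 higher without BSF replicate 1, 1 lower without BSF replicate 2 and 6 higher with library totals alone. NRF2 targets gave 5 and 3 of 18, while autophagy genes were lower in 10 of 19 and higher in none, including Map1lc3b, which coats autophagosomes (107 and 113 CPM against 150, 142 and 147 CPM, -0.41 ± 0.06).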

How the data were processed

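Per the labels' protocols, EpCAM-sorted jejunal cells were the source of the polyadenylated RNA. The authors deposited raw counts per gene, whole numbers, for 21868 symbols in 13 libraries. The submitters' processing notes name STAR 2.7.2e, cutadapt 2.9, FastQC 0.11.8 and DESeq2 1.32.0, and the builds mm10 and GRCm38. No source used here gives the strand setting or the treatment of multi-mapping reads, so close paralogs and overlapping genes are uncertain. Coordinates came from GENCODE release M21 on GRCm38 (99.2% of symbols matched) and promoters from RefSeq's table on GRCm38.p6.

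Genes were kept by filterByExpr (14051 genes, 99.9% of counts of the libraries fitted) and libraries scaled by trimmed means. The quasi-likelihood test of edgeR 4.0.16 in R 4.3.3 was fitted to the 10 libraries of BSF, LSF, BSF_C and DSF. Group was its single term and left 6 residual degrees of freedom. Tests were two-sided, adjusted by Benjamini-Hochberg over all genes tested, with a threshold of 0.05. The control group was left out of the fit. The comparison holds no control library, and earlier work on these data found the controls apart and wider in spread. With all 13 libraries in the fit, 4224 genes were called between BSF and LSF, 1943 higher and 2281 lower in BSF. SE is the size of the log2 fold change divided by the root of that test's F. It is no standard error of the coefficient and can be too small where counts are few. The test was also run on counts simulated from the spread fitted here, with far fewer changed genes than were called. Such a run cannot check that spread or the scaling. With 2 against 3 libraries an exact permutation test has 10 splits, so summed levels are given without a p. The labels give no batch. DSF columns carry numbers other than the labels' replicates, so DSF libraries have no replicate number.

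The comparison and the 59 gene lists were chosen with earlier results of these data known, and 16 of the lists hold markers of other cells and tissues. Genes were named by a rule. It took the 10 largest rises and falls among called, non-overlapping genes whose higher group had at least 5 CPM, without mitochondrially encoded genes, unnamed models and members of the other-tissue lists. For each list with at least 3 calls it took the 4 members of smallest p, and it always took fixed clock and sort genes. The 10 largest rises and falls with at least 100 CPM were added after the data were seen. Acta1, Apoa4, Atf3, Egr3, Itgae, Ldb3, Mbp and the 2 skeletal myosins were named after their values were seen. Some genes that the rule took are not reported here. Alternatives were other scalings and tests, no filter, other sets of libraries, a replicate block and leaving out each library.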

Additional observations from a re-analysis of the deposited data

How the results depend on the processing

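None of the 230 named genes that passed the test changed direction under an alternative run. Of the 9 that did not pass, 4 did (Cry2, Nfil3, Nr0b2 and Per3), and so did the medians of 12 of 59 gene lists, whose reported medians lay within 0.29 of zero. The counts for BSF against LSF kept within 1.5 times their values except 1: the Wald test of DESeq2 1.42.0 called 3588 genes, of which 1545 were higher in BSF in place of 2444. Its calls for BSF_C against DSF were 1465 in place of 2448 (723 higher, 742 lower), and for LSF against DSF 882 genes were lower in LSF in place of 1399. Leaving out 1 library in turn gave 3638 to 4555 calls for BSF against LSF (1639 to 2099 higher, 1999 to 2484 lower). For BSF_C against DSF it gave 1546 to 2238 calls (741 to 1087 higher, 805 to 1151 lower), the fewest without a DSF library, and for LSF against DSF it gave 890 to 1213 genes lower in LSF, again fewest without a DSF library. Where 1 library was left in a group, it was assumed to vary like the other groups. Library totals alone turned the balance of directions, moving the share of higher calls from 47.5% to 63.6% for BSF against LSF and from 53.9% to 35.8% for LSF against DSF, with 2262 lower genes in the latter. The cause of these changes was not tested. The same replicate numbers do not mark pairs by the labels, and same-numbered samples of BSF and LSF deviated together only weakly (r = 0.073 and 0.053). The 2 BSF libraries deviate from their mean as mirror images, so these values are not independent and cannot decide on pairing. With the number as a replicate block, 5042 genes were called (2431 higher, 2611 lower), against 5165 in the same libraries without it. Of 239 named genes, between 226 and 239 kept their side of the threshold where all were tested. Those that lost it in more than 1 setting included Lox, Tubb3, S100b, Cyp24a1, Ptprc, Nr1h4, Rps2, Krt8, Krt19, Cldn4 and Atp5a1. Few counts limit genes at a few CPM, and the 2 BSF libraries limit every result.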

Other observations

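Further genes differed between breakfast and lunch skipping. Ndrg1, a protein induced by stress and differentiation, was 94.8 and 91.8 CPM in BSF and 266, 265 and 270 CPM in LSF (-1.52 ± 0.05, adjusted p = 6.67e-48), with means of 97.1 CPM in BSF_C and 88.6 CPM in DSF. Hdc, the enzyme that makes histamine, was 3.03 and 1.94 CPM in BSF and 13, 11.5 and 11.6 CPM in LSF (-2.29 ± 0.24), and 3.49 CPM on average in DSF. Enpp3, an ectoenzyme that cleaves extracellular nucleotides, was 40.0 and 48.6 CPM in BSF and 100, 90.0 and 100 CPM in LSF (-1.12 ± 0.08), while Slc28a1, a carrier of pyrimidine nucleosides, differed by -0.82 ± 0.07. Hba-a1, an alpha globin with a near-identical copy, was 3.31 and 5.02 CPM against 20.4, 22.9 and 24.7 CPM (-2.41 ± 0.18), and 8.91 CPM on average in DSF. Muc4, a membrane mucin, was higher in BSF, at 107 and 118 CPM against 72.2, 63.2 and 66.1 CPM (0.75 ± 0.06), and was 123 CPM in DSF. Apol10a, an apolipoprotein L gene, was 525 and 546 CPM in BSF, 322, 332 and 320 CPM in LSF and 578 CPM in DSF (0.72 ± 0.04 between BSF and LSF). Mptx2, a pentraxin known from Paneth cells, was 112 and 107 CPM against 64.9, 59.9 and 59.7 CPM (0.83 ± 0.06), and Nrarp, a feedback inhibitor of Notch signalling, differed by 0.62 ± 0.06.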
